A study of Mus musculus with 3 samples.

Results

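Venous endothelial cells are the lining cells of veins and venules. In these data they were 89 cells out of 1004 endothelial cells and 8186 cells kept, from single-cell libraries of mouse inguinal fat, a subcutaneous depot. A cell was kept with at least 500 genes detected and at most 15% mitochondrial transcripts, and was called endothelial when at least 3 of 8 pan-endothelial genes (Pecam1, Cdh5, Egfl7, Cldn5, Ptprb, Flt1, Kdr and Emcn) had a unique molecular identifier (UMI, 1 counted transcript) and the leukocyte gene Ptprc had at most 1. It was called venous when its summed UMIs of Selp and Vwf were at least 2 and exceeded its summed UMIs of the capillary genes Gpihbp1, Cd300lg and Btnl9. The cells were chosen by those values, so levels of these 14 genes describe the selection and are not findings.

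The study held 3 libraries of the stromal and vascular fraction, 1 for each genotype: Pdgfra-Cre; TERT fl/fl, Pdgfrb-Cre; TERT fl/fl, and TERT +/+. Tert makes the enzyme part of telomerase, and Cre driven by Pdgfra or Pdgfrb removes the floxed gene in cells that use that promoter, chiefly mesenchymal cells. The title of the TERT +/+ library also carries PBS, which the labels do not explain, and the labels give no age, sex or number of animals. Genotype and library cannot be told apart, so every difference between genotypes below is a difference between 1 library and another, with no test. The venous cells numbered 23 in the Pdgfra-Cre library, 23 in the Pdgfrb-Cre library and 43 in the wild-type library, and held 324570, 268797 and 311837 UMIs in that order. Tert itself had 0 UMIs in the venous cells of all 3 libraries, which allows, at 3 UMIs, up to 9.24 UMIs in 1000000 (CPM) in the Pdgfra-Cre, 11.2 in the Pdgfrb-Cre and 9.62 in the wild-type cells, so the deletion could not be checked in them.

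Postcapillary venules are where leukocytes leave the blood. Their endothelium stores P-selectin (Selp) and von Willebrand factor (Vwf) in granules, displays E-selectin (Sele), Vcam1 and Icam1 for rolling and firm adhesion, and carries chemokines across the wall with the atypical receptor Ackr1. Capillary endothelium of fat instead carries Gpihbp1, which anchors lipoprotein lipase, and the fatty acid carriers Cd36 and Fabp4.

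Venous cells made up 16% of endothelial cells in the Pdgfra-Cre library (95% exact interval 10.4 to 23), 10.2% in the Pdgfrb-Cre library (6.59 to 14.9) and 6.77% in the wild-type library (4.94 to 9.01). The intervals cover counting error only, and the median venous cell held 14912 UMIs in the Pdgfra-Cre, 8800 in the Pdgfrb-Cre and 3438 in the wild-type library. When every cell was thinned to 2000 UMIs and shallower cells were left out, the shares were 15.3%, 7.88% and 7.79% of 111, 203 and 308 endothelial cells, so the Pdgfrb-Cre and wild-type shares lay within each other's intervals. Among cells with at least 1000 genes they were 20.7%, 10.1% and 11.9%. Of all cells kept, venous cells were 1.61% in the Pdgfra-Cre, 0.570% in the Pdgfrb-Cre and 1.58% in the wild-type library.

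**Figure D1:**
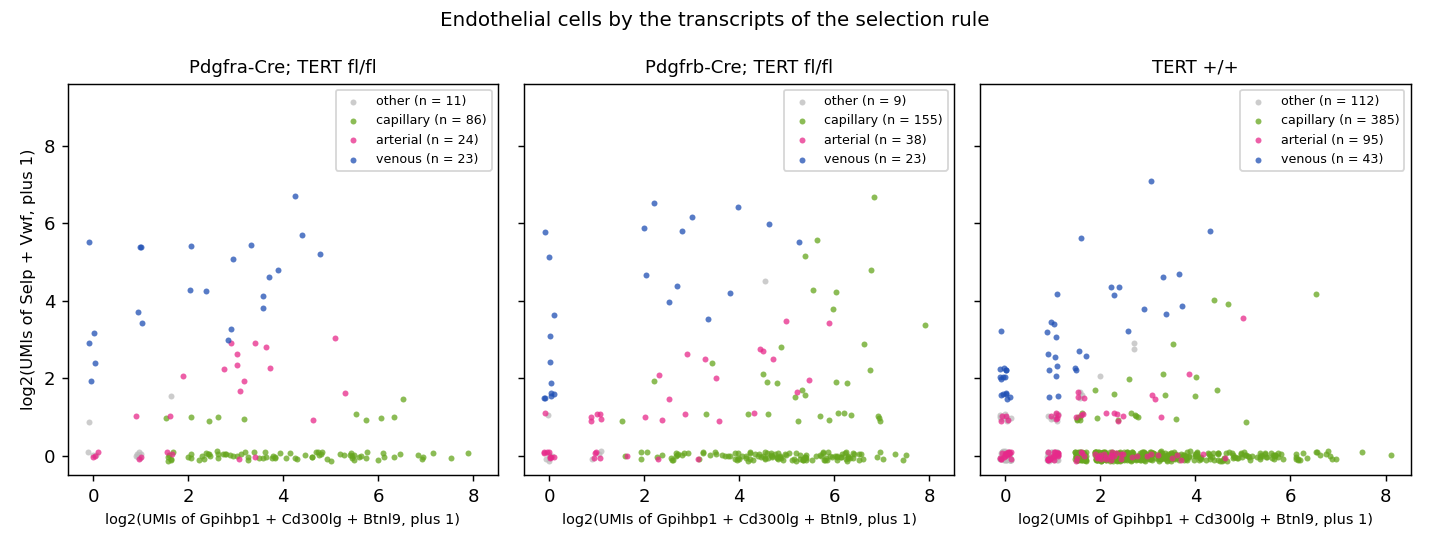
Summed UMIs of Selp and Vwf (vertical axis) against those of Gpihbp1, Cd300lg and Btnl9 (horizontal axis) in each endothelial cell, both as log2 of the sum plus 1, with small random offsets so that cells do not hide each other. The 23, 23 and 43 venous cells lie high and to the left, and many wild-type ones stand at low sums, where the cells also held few UMIs.

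Both Selp and Vwf were present in 17 of 23 venous cells of the Pdgfra-Cre, 13 of 23 of the Pdgfrb-Cre and 33 of 43 of the wild-type library. Vwf without Selp was found in 5, 6 and 2 cells, in the same order. These Vwf-only cells were unlike the other members in both Cre libraries. Gja5, a gap junction protein of arterial endothelium, stood at 313 CPM in those of the Pdgfra-Cre and 262 CPM in those of the Pdgfrb-Cre library, and at 0 in the wild-type pair. Sema3g, a semaphorin of arterial endothelium, stood at 625, 445 and 0 CPM. Lrg1, a secreted glycoprotein of venous endothelium, was at 397 and 13.1 CPM in the Vwf-only cells of the Pdgfra-Cre and Pdgfrb-Cre libraries, against 974 CPM in the wild-type pair. In cells with Selp, Lrg1 was at 1483, 1237 and 1826 CPM, and Gja5 was at 0 in all 3 libraries. Sema3g still had 7 UMIs in Pdgfra-Cre cells with Selp. Members with at least 2 UMIs of Gja5 and Sema3g together, called arterial-marked below, numbered 5 of 23, 5 of 23 and 0 of 43, and 4, 5 and 0 of them lacked Selp. Where a gap described below fell inside 2-fold or lost more than a log2 unit without such cells, the value without them is given. Both the venous rule and the arterial mark ask for 2 UMIs at any depth, and median venous cells held 14912, 8800 and 3438 UMIs. The numbers of arterial-marked and Vwf-only cells were not compared at equal depth.

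The rule's lower limit was met by cells with exactly 2 UMIs of Selp and Vwf, of which there were 0, 5 and 8 in the Pdgfra-Cre, Pdgfrb-Cre and wild-type libraries. The 8 wild-type cells had 1918 CPM of Lrg1 and 3562 CPM of Plvap, and the 5 Pdgfrb-Cre cells had 63.8 CPM of Lrg1, 42.5 CPM of Plvap and 340 CPM of Gja5. Just outside the limit, 13 wild-type endothelial cells with 1 such UMI, more than their capillary sum, had 956 CPM of Lrg1 and 1461 CPM of Plvap.

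Other classes were checked through marker lists. Members with at least 2 stromal markers numbered 0, 5 and 14, with at least 2 mural markers (pericyte and smooth muscle genes) 4, 9 and 13, and with at least 2 red cell markers 5, 0 and 0, in the Pdgfra-Cre, Pdgfrb-Cre and wild-type libraries. The 6 mural markers summed to 1060, 3914 and 818 CPM, the 5 stromal markers to 123, 800 and 683 CPM, and the 3 B cell markers to 0, 3.72 and 67.3 CPM. The 9 lymphatic markers summed to 73.9, 789 and 12.8 CPM, and 200 Ccl21a UMIs of the Pdgfrb-Cre sum came from 1 member. Lyve1, another of these markers, was at 0, 7.44 and 0 CPM. Members with at least 2 lymphatic markers numbered 1, 2 and 0. No member was among the barcodes with the highest doublet scores. The part of other cells' transcripts in the results below was not tested, beyond recomputing them without the marked cells.

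The venous label was checked in genes that the rule did not use, and Lrg1, Plvap, Sele and Ackr1 stood higher in venous than in capillary cells of every library. Lrg1 was at 1205 CPM in venous cells of the Pdgfra-Cre (95% interval 1088 to 1330), 889 CPM of the Pdgfrb-Cre (780 to 1009) and 1812 CPM of the wild-type library (1666 to 1968), against 78.1, 59.8 and 139 CPM in capillary cells of the same libraries. Plvap, the diaphragm protein of fenestrae and transport vesicles, was at 1457, 1064 and 3374 CPM in venous and 149, 231 and 749 CPM in capillary cells. Sele was at 373, 357 and 410 CPM in venous and 1.26, 9.13 and 11.2 CPM in capillary cells. Ackr1 was at 425, 409 and 782 CPM in venous and 6.30, 14.7 and 18.7 CPM in capillary cells. For each of these 4 genes all 3 venous values lay above all 3 capillary values, and Lrg1, Plvap and Ackr1 were highest in wild-type venous cells.

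Sele was detected in 11 of 23, 15 of 23 and 21 of 43 venous cells. It was detected in 0.357%, 0.285% and 0.409% of lymphocytes (median depths 5415.5, 5981.5 and 4751 UMIs). Lymphocytes do not make Sele, so these shares measure the background from free RNA. The orphan receptor Nr2f2, which sets venous fate in development, did not separate the classes in every library. It was at 194, 179 and 491 CPM in venous cells and at 234, 120 and 141 CPM in capillary cells of the Pdgfra-Cre, Pdgfrb-Cre and wild-type libraries. Without lymphatic-marked cells, capillary Nr2f2 in the Pdgfra-Cre library was 100 CPM. Ephb4, the venous partner of arterial ephrin-B2, was at 102, 52.1 and 164 CPM in venous and 81.8, 50.2 and 89.1 CPM in capillary cells, and the Pdgfrb-Cre values differed by less than their counting intervals.

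**Figure D2:**
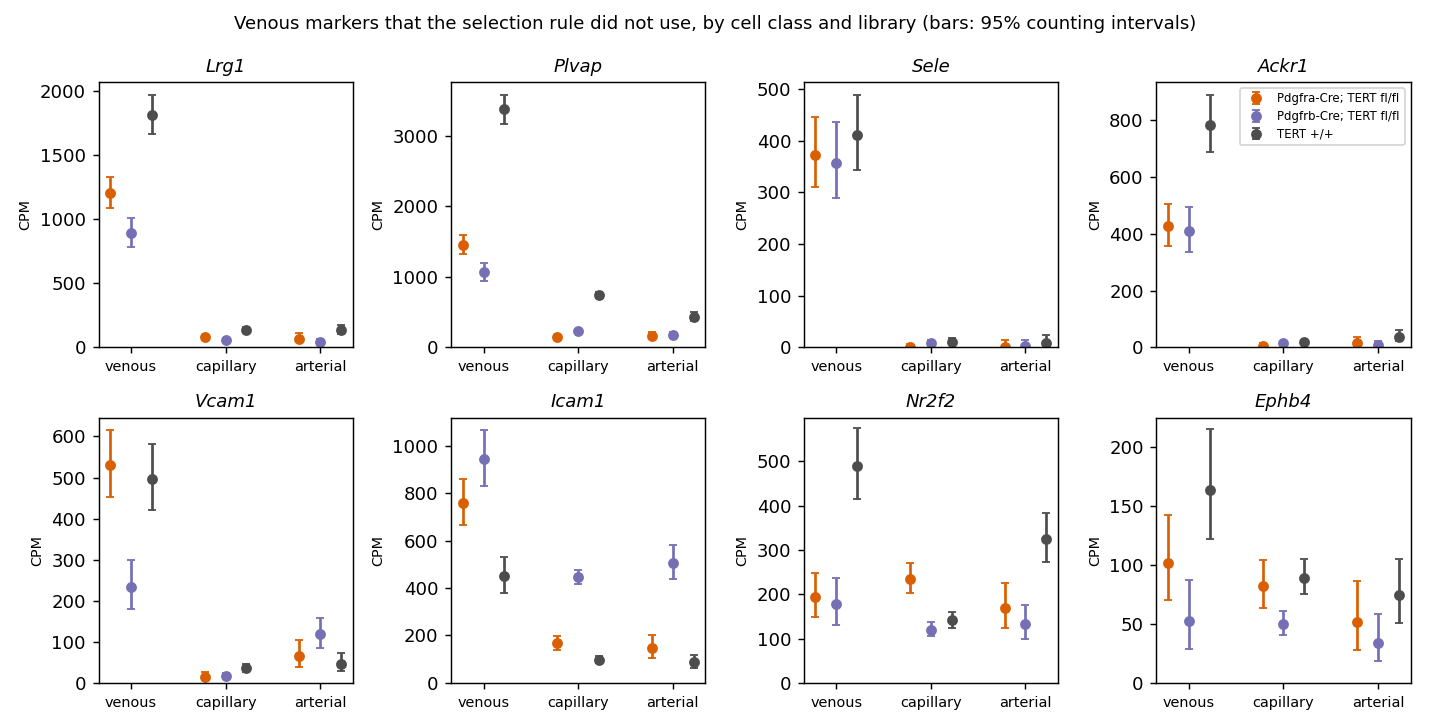
Level in CPM (vertical axes, from 0) of 8 venous markers in venous, capillary and arterial-type endothelial cells of the 3 libraries, with 95% counting intervals as bars. Lrg1, Plvap, Sele and Ackr1 are far higher in venous than in capillary cells of every library, and Nr2f2 and Ephb4 are not.

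To ask what else sets venous cells apart in all 3 libraries, UMIs were summed over venous and over capillary cells of each library and compared with the edgeR quasi-likelihood test, with library as a block and without the 14 rule genes, whose UMIs are also left out of the CPM given with these fold changes. Of 6624 genes fitted, 621 had an adjusted p under 0.05, or 9.38%. Of these, 390 (5.89%) were higher in venous and 231 (3.49%) lower. Because the cells were split on venous and capillary transcripts, genes that go along with those are not independent of the split, and the counts describe the size of the contrast. The 86, 155 and 385 capillary cells of the Pdgfra-Cre, Pdgfrb-Cre and wild-type libraries included 15, 6 and 2 lymphatic-marked cells, and without such cells 706 genes were called, 564 of them shared with the 621. Without the Pdgfra-Cre library 358 genes were called, with no library block 285, and by DESeq2 370. The 3 libraries give 2 residual degrees of freedom.

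Among genes with at least 50 CPM in the higher class of every library, Cytl1, Sele and Ackr1 had the largest rises in venous cells. Cytl1, which encodes a small secreted protein, was at 314, 274 and 204 CPM in venous and 1.27, 2.57 and 0 CPM in capillary cells, a log2 fold change of 7.58 ± 0.41 (SE, edgeR adjusted p = 4.07e-05). Fold changes of Sele (5.71 ± 0.36), Ackr1 (5.40 ± 0.26), Vcam1 (4.27 ± 0.29) and Lrg1 (3.98 ± 0.18) followed, on the log2 scale with SE. The Ackr1 value and that of Cadm3, an adhesion molecule gene with 4.36 ± 0.30, come from genes whose annotated spans overlap on chromosome 1 (173331886 to 173333750 and 173333258 to 173367695), so reads may be shared between them. Of 13 venous identity genes fitted, 8 rose and 0 fell in venous cells by edgeR, as by DESeq2, and at an unadjusted edgeR p under 0.05 the counts were 11 and 0. They included Il1r1, the interleukin-1 receptor, at 90.1, 113 and 197 CPM in venous and 21.7, 15.4 and 23.3 CPM in capillary cells. Nr2f2 (0.87 ± 0.32 on the log2 scale, edgeR adjusted p = 0.144) and Ephb4 (0.61 ± 0.23, edgeR adjusted p = 0.154) did not pass.

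Further genes stood among the 15 with the largest rise under the same minimum. Ptgs1, cyclooxygenase 1, was at 193, 78.8 and 427 CPM in venous and 10.2, 20.1 and 30.9 CPM in capillary cells, with a log2 fold change of 3.45 ± 0.38 (SE). Slco2a1, the prostaglandin transporter, was at 363, 210 and 210 CPM in venous and 20.4, 30.3 and 46.0 CPM in capillary cells (3.09 ± 0.35). Cysltr1, a receptor for cysteinyl leukotrienes, was at 93.2, 63.8 and 210 CPM in venous and 7.65, 5.14 and 10.7 CPM in capillary cells (4.04 ± 0.29). The others were Tagln, an actin-binding protein gene (3.82), Myof, myoferlin (3.61), the zinc finger factor gene Gata6 (3.45), Pdia5, a disulfide isomerase of the endoplasmic reticulum (3.30), Clu, clusterin (3.26), and Cybb, the NADPH oxidase subunit (3.19). The Cybb call was lost in 1 of 13 alternatives, with an edgeR adjusted p of 0.113, and the other 14 held in all 13.

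Genes of capillary fat handling were lower in venous cells. Of 13 fitted, 9 fell and 1 rose. Fabp4 was at 17783, 14783 and 17515 CPM in venous and 36354, 39763 and 32405 CPM in capillary cells (log2 fold change -0.97 ± 0.10, SE), so it remained among the abundant transcripts of venous cells. Cd36 (-1.19 ± 0.14), the lipid-sensing factor gene Pparg (-2.12 ± 0.25) and Lpl, lipoprotein lipase (-2.66 ± 0.42), also fell. Car4, a carbonic anhydrase on capillary surfaces, was at 0, 3.75 and 16.2 CPM in venous and 340, 255 and 364 CPM in capillary cells (-5.45 ± 0.45). Npr3, the natriuretic peptide clearance receptor (-4.60), the protease inhibitor gene Timp4 (-4.03), Aqp7, a glycerol channel (-3.06), Rgcc (-3.89), Clic5 (-3.64), Chchd10 (-4.35), Tmem182 (-4.14), Fam212a (-3.23) and the predicted gene Gm12002 (-5.45) made up the other 9 of the 10 largest falls.

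**Figure D3:**
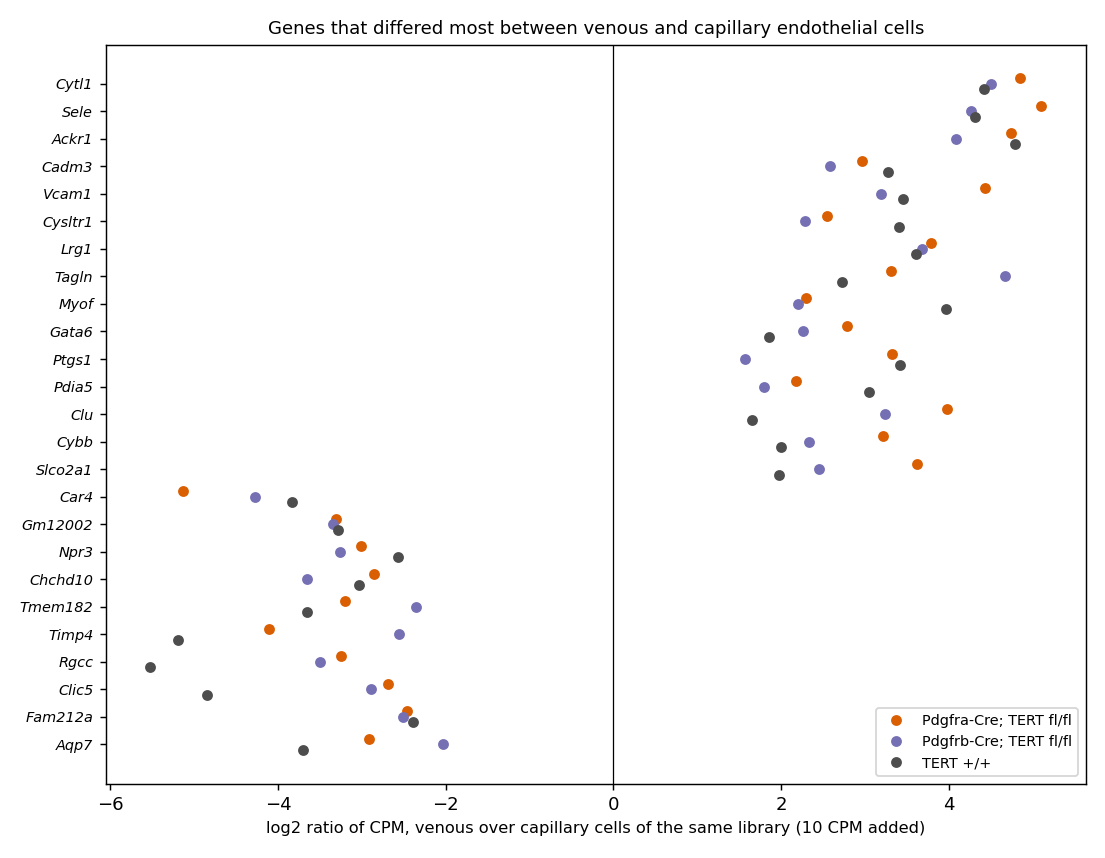
Log2 ratio of CPM, venous over capillary cells of the same library, with 10 CPM added (horizontal axis), for the 15 genes with the highest and the 10 with the lowest edgeR fold change, 1 point per library. Every point of the upper 15 genes lies right of 0 and every point of the lower 10 lies left of it.

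Chemokine and cytokine genes contributed 6 rises and 1 fall of 14 fitted. Il6, interleukin-6, was at 149, 484 and 145 CPM in venous and 47.1, 32.4 and 18.3 CPM in capillary cells (log2 fold change 3.08 ± 0.37, SE, edgeR adjusted p = 0.00143). Csf3, granulocyte colony-stimulating factor, passed as well (5.64 ± 0.49, edgeR adjusted p = 0.0004), but its levels were 276, 1163 and 3.23 CPM in venous and 0, 36.0 and 0 CPM in capillary cells, and 3 of 13 alternatives did not call it. Cxcl12, which guides cells that carry Cxcr4, fell (-1.54 ± 0.24). In the clotting list 3 of 13 rose, among them Procr, the protein C receptor (2.82 ± 0.32), and Entpd1, which breaks down extracellular ATP (2.58 ± 0.28), and 1 fell, the thrombin receptor gene F2r (-3.83 ± 0.47).

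Matrix and tone genes divided in both directions. The proteoglycan gene Bgn rose (2.63 ± 0.21, log2 and SE) and the basement membrane collagen gene Col4a1 fell (-1.32 ± 0.21), within 5 rises and 6 falls of 20. The vasoconstrictor gene Edn1 rose (2.22 ± 0.46) and the receptor gene Ednrb fell (-2.83 ± 0.58), within 5 rises and 2 falls of 13. Of 25 immediate early genes 9 rose, such as Nr4a1 (1.89 ± 0.17) and Ier3 (1.99 ± 0.21), and 1 fell. NF-kB targets rose in 5 of 15 and fell in 0 by edgeR. At an unadjusted p under 0.05 the counts for NF-kB targets were 11 and 0, and by DESeq2 8 and 0. Heat shock genes (14 fitted), MHC class I genes (10) and telomere genes (9) had no call by edgeR or DESeq2 in either direction. Over all genes fitted edgeR called 9.38%, and lists this short would hold few calls at that share. At an unadjusted edgeR p under 0.05, 2 heat shock genes were higher and 1 lower, 1 telomere gene was higher, and 0 MHC class I genes passed.

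Between genotypes, a gene was compared when it had at least 50 CPM in either library and 20 UMIs in both together, and past 2-fold means a log2 ratio of at least 1 in size with 10 CPM added. Of 3520 genes compared between Pdgfra-Cre and wild-type venous cells, 209 (5.94%) were higher and 236 (6.70%) lower past 2-fold in Pdgfra-Cre, 12.6% in all. Of 3601 compared between Pdgfrb-Cre and wild type, 353 (9.80%) were higher and 298 (8.28%) lower in Pdgfrb-Cre, 18.1% in all. The median log2 ratio of all genes was -0.08 and -0.04. Both comparisons share the wild-type library. Without members that lacked Selp, the counts were 156 higher and 263 lower for Pdgfra-Cre, and 291 and 324 for Pdgfrb-Cre.

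Csf3 was the gene that stood furthest from wild type in Pdgfrb-Cre venous cells and the highest outside haemoglobin in Pdgfra-Cre. It had 89 UMIs in 10 of 23 Pdgfra-Cre cells, 310 UMIs in 16 of 23 Pdgfrb-Cre cells and 1 UMI in 1 of 43 wild-type cells. That is 274 CPM (220 to 337), 1153 CPM (1028 to 1289) and 3.21 CPM (0.0812 to 17.9). The cell with most Csf3 held 43 of the Pdgfra-Cre and 96 of the Pdgfrb-Cre UMIs. Against wild type the ratios were 85.5 (15 to 3415) for Pdgfra-Cre and 360 (64.1 to 14250) for Pdgfrb-Cre, with the wide upper bounds set by the single wild-type UMI. At a common 2000 UMIs per cell, 24.5%, 52.1% and 0.139% of venous cells held Csf3. In capillary cells it was at 0, 35.5 and 0 CPM, and no more than 0.102% of lymphocytes of any library held it.

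The chemokine and cytokine list lay higher in both Cre libraries. In Pdgfra-Cre, 8 of 11 members compared were higher, 6 of them past 2-fold, with a median log2 ratio of 1. In Pdgfrb-Cre, 10 of 12 were higher, 8 past 2-fold, with a median of 1.72. Capillary cells of the same libraries had medians of 0.25 and 1.16 for these genes. Cxcl9, which attracts activated T cells, was at 588 CPM in Pdgfra-Cre (508 to 678), 167 CPM in Pdgfrb-Cre (122 to 224) and 41.7 CPM in wild-type cells (22.2 to 71.3). Cxcl10, which binds the same receptor, was at 730, 279 and 244 CPM, and 78 of its 237 Pdgfra-Cre UMIs came from 1 cell. Cxcl2, which attracts neutrophils, was at 18.5, 290 and 6.41 CPM, and was found in 2, 11 and 2 cells. The monocyte attractant Ccl2 was at 249 CPM in Pdgfrb-Cre and 19.2 CPM in wild-type cells, and Cxcl1, another chemokine for neutrophils, at 707 and 135 CPM. Il6 was at 148, 480 and 144 CPM, with 66 of the 129 Pdgfrb-Cre UMIs in 1 cell.

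The stretch before the start site of Cxcl2, Cxcl9 and Cxcl10 is shown because Cxcl2 was highest in Pdgfrb-Cre cells and Cxcl9 and Cxcl10 in Pdgfra-Cre cells. The sequences are from RefSeq's promoter table (build GRCm38.p6). Each is 250 bases, read 5′ to 3′ on the gene's strand, and capitals mark matches to GGGANNTTCC or GGGANTTCC, forms of the sequence that NF-kB binds, searched on both strands. The positions are Cxcl2 at chr5:90903649-90903898 (plus strand), Cxcl9 at chr5:92328080-92328329 (minus strand) and Cxcl10 at chr5:92348890-92349139 (minus strand).
Cxcl2: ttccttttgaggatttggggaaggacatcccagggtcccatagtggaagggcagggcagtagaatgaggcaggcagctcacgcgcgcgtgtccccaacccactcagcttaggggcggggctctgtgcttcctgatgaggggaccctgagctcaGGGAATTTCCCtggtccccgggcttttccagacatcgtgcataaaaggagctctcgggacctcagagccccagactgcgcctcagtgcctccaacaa
Cxcl9: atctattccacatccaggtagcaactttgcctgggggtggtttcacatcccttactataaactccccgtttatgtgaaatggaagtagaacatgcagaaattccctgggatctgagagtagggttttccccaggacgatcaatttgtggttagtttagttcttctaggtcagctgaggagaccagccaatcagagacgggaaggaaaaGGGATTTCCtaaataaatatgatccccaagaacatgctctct
Cxcl10: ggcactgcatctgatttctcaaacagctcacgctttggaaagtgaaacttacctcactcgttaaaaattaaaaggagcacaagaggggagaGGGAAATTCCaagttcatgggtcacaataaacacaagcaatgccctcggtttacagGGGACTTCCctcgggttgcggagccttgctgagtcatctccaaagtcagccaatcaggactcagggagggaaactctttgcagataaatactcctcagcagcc
Matches began 97 and 96 bases before the start of Cxcl2, where 1 on each strand overlap, 42 before that of Cxcl9, and 159 and 103 before that of Cxcl10. In windows from 250 bases before to 50 after the start, 6 of 12 genes of the list with an entry held a match, namely Cxcl1, Cxcl2, Cxcl9, Cxcl10, Il6 and Csf1. Among all genes with an entry, 946 of 27025 did, or 3.50%. Csf3, Ccl2, Cxcl16, Ccl7, Il15, Ccl5 and Cxcl5 of the list had no entry and could not be searched. A match is a string of letters and not shown to be a bound site. The NF-kB target list had a median log2 ratio of 0.57 in Pdgfra-Cre and 1.07 in Pdgfrb-Cre over wild type. Higher past 2-fold were 2 of 13 and 7 of 12 members, and 0 and 1 were lower past it. Capillary medians for this list were 0.43 and 1.45. Its members include Nfkbia, the NF-kB inhibitor, at 4256 CPM in Pdgfrb-Cre and 1847 CPM in wild-type cells, and share Irf1, Cxcl1 and Ccl2 with other lists.

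Interferon response genes lay higher in Pdgfra-Cre. Of 15 compared, 13 were higher, 7 of them past 2-fold, and 1 was lower past 2-fold, with a median log2 ratio of 0.80 against 0.15 for 11 in Pdgfrb-Cre. Ifit1, an RNA-binding antiviral protein gene, had 39 UMIs in 11 of 23 Pdgfra-Cre cells and 1 UMI in 43 wild-type cells, or 120 and 3.21 CPM. Irf1, an interferon regulatory factor gene, was at 712 CPM in Pdgfra-Cre and 205 CPM in wild-type cells, a ratio of 3.47 (2.62 to 4.65), and in 21 of 23 against 20 of 43 cells. Bst2, tetherin, was at 474 and 160 CPM, a ratio of 2.96 (2.14 to 4.16). Ifi27l2a ran the other way, at 9.24 and 148 CPM, a log2 ratio of -3.03 that was -0.71 without members that carried markers of another class. The capillary median for this list was 0.21 in Pdgfra-Cre.

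**Figure D4:**
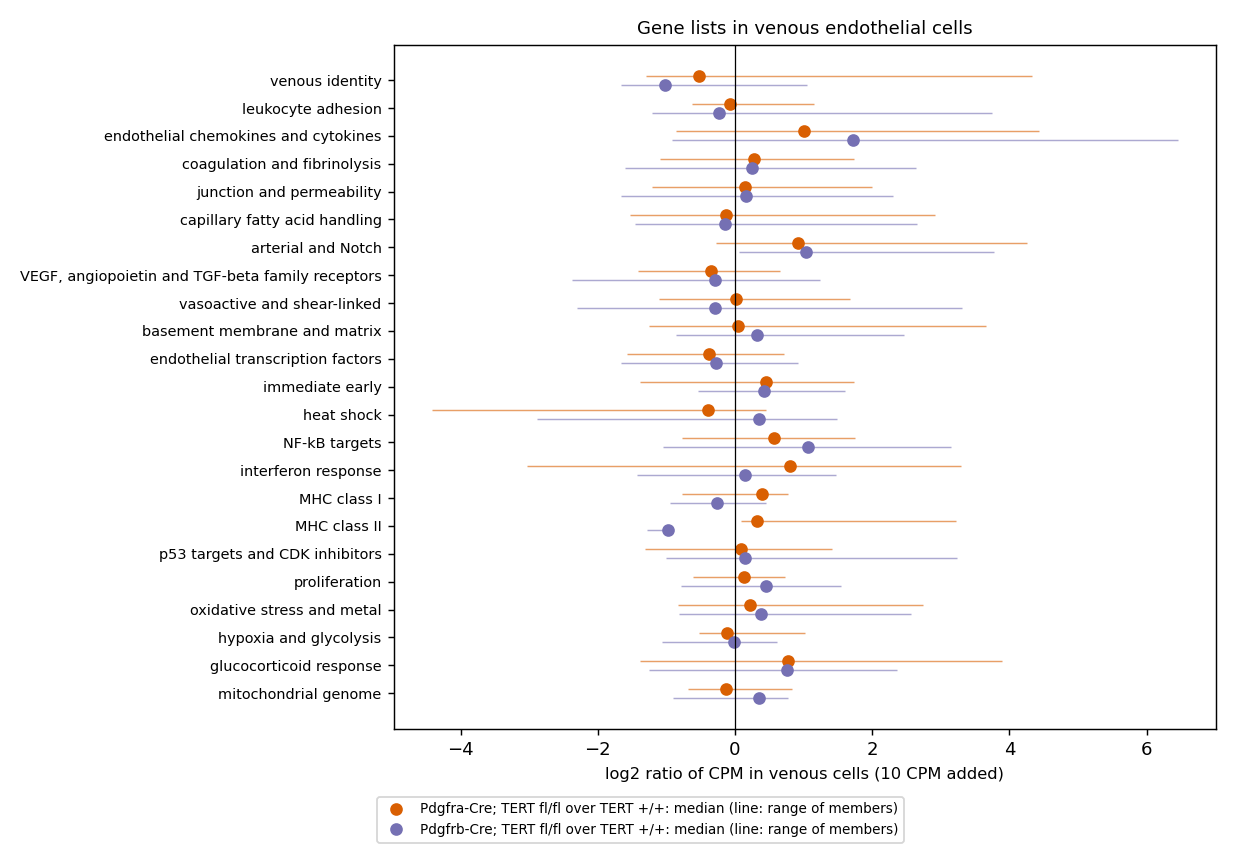
Median log2 ratio of CPM over wild type (10 CPM added, horizontal axis) of each gene list in venous cells, as 1 point for each Cre library, with lines from the lowest to the highest member compared. The marker lists of cell classes and lists with under 3 genes compared are not drawn. Of the lists drawn, chemokines and cytokines have the highest median in both (1 and 1.72), and venous identity genes the lowest (-0.53 and -1.02).

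Venous identity genes lay lower in both Cre libraries. Of 14 compared in Pdgfra-Cre 10 were lower, 3 past 2-fold, with a median log2 ratio of -0.53. Of 13 in Pdgfrb-Cre 12 were lower, 8 past 2-fold, with a median of -1.02. Plvap had ratios of 0.432 (0.387 to 0.482) and 0.315 (0.276 to 0.360), and Nr2f2 ratios of 0.396 (0.290 to 0.534) and 0.364 (0.257 to 0.506) to wild type. The median moved to -0.20 in Pdgfra-Cre and -0.63 in Pdgfrb-Cre once members without Selp were left out. In Pdgfra-Cre the log2 ratios of Plvap and Nr2f2 were -1.21 and -1.29, and inside 2-fold at -0.82 and -0.91 without arterial-marked members. Plvap was also lower in capillary cells of both Cre libraries, by log2 ratios of -2.26 and -1.65. The rule asks for 2 UMIs of Selp and Vwf at any depth, and median venous cells held 14912, 8800 and 3438 UMIs. These gaps were not recomputed in members chosen at equal depth, so the part of depth in them was not tested.

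Arterial and Notch genes lay higher in both, with medians of 0.92 and 1.03, and this moved with the Vwf-only cells described above. Sema3g was at 182, 126 and 0 CPM and Gja5 at 80.1, 74.4 and 0 CPM in Pdgfra-Cre, Pdgfrb-Cre and wild-type venous cells. Without members that lacked Selp the medians were 0.09 and 0.19. Sema3g was then at 0 UMIs in the Pdgfrb-Cre cells, as in wild type, and at a log2 ratio of 1.96 in the Pdgfra-Cre cells. The connexin gene Gja4 was then at 1.04 in Pdgfra-Cre, against 2.17 with all members, and was at -0.040 without the arterial-marked ones. Without those members, which were marked by Gja5 and Sema3g themselves, the log2 ratio of Sema3g was 0 in both Cre libraries.

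The inducible heat shock genes Hspa1a and Hspa1b were lower in both Cre libraries. Hspa1a, the inducible heat shock protein 70, was at 105 CPM in Pdgfra-Cre, 484 CPM in Pdgfrb-Cre and 2453 CPM in wild-type cells, and its twin Hspa1b at 83.2, 182 and 1405 CPM. These near-identical genes can share reads. Hspa1a was 23.4-fold lower in Pdgfra-Cre (16.6 to 34.1), and in 8 of 23 against 42 of 43 cells. Of 13 heat shock genes compared 4 were lower and 0 higher past 2-fold in Pdgfra-Cre, with a median log2 ratio of -0.40. In Pdgfrb-Cre 3 were lower and 1 higher past it, with a median of 0.35. The list median thus went the same way as Hspa1a in Pdgfra-Cre and the other way in Pdgfrb-Cre. Capillary medians for this list were 0.45 in Pdgfra-Cre and 0.74 in Pdgfrb-Cre. Capillary cells had log2 ratios of -3.21 and -2.03 for Hspa1a, and 13.9%, 9.69% and 77.9% of lymphocytes of the Pdgfra-Cre, Pdgfrb-Cre and wild-type libraries held it, so the gap was not limited to venous cells.

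Of the genes highest in wild-type venous cells, Ptn and Serpina3n did not stand highest in wild-type capillary cells. Ptn, the growth factor pleiotrophin, had 4 UMIs in 1 Pdgfra-Cre cell, 1 UMI in 1 Pdgfrb-Cre cell and 87 UMIs in 19 of 43 wild-type cells, or 12.3, 3.72 and 279 CPM. It was at 16.4, 2.54 and 0.623 CPM in capillary cells. The single richest wild-type cell held 43 of the 87 UMIs. Serpina3n, a secreted serine protease inhibitor, was at 9.24, 14.9 and 321 CPM in venous cells, with 100 UMIs in 23 of 43 wild-type cells, and at 50.4, 3.55 and 19.9 CPM in capillary cells. Sectm1a had 0, 0 and 39 UMIs, at least 13.5-fold lower in Pdgfra-Cre and 11.2-fold lower in Pdgfrb-Cre when 0 is set to 3 UMIs per library. Gdpd3, a glycerophosphodiester phosphodiesterase, had 0, 2 and 133 UMIs, and was at 1.26, 3.55 and 917 CPM in capillary cells and in 0 of 280 Pdgfra-Cre lymphocytes (which allows up to 1.07%) and 0.285% of Pdgfrb-Cre ones, against 57.6% of wild-type lymphocytes, so this gap ran through the libraries.

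Further genes were among the 12 highest of 1 Cre library. Haemoglobin led in Pdgfra-Cre, where Hbb-bs had 7423 UMIs in 15 cells, 4203 of them in 1 cell, against 1 UMI in wild-type and 0 in Pdgfrb-Cre venous cells. Hba-a1 had 3797 and 1 UMIs in Pdgfra-Cre and wild-type venous cells, and Hba-a2 2848 and 0. Capillary cells went the other way for Hbb-bs, at 66.7 CPM in Pdgfra-Cre and 1104 CPM in wild type. Capillary Hba-a1 was likewise at 44.1 and 1270 CPM, and Hba-a2 at 32.7 and 26.2 CPM. Without members that carried markers of another class, the venous log2 ratios were 3.04 for Hbb-bs, -0.55 for Hba-a1 and 1.35 for Hba-a2. Red cell markers were among those used, and Hbb-bs and Hba-a1 are such markers, so their fall was partly set by that choice. Mgp, a matrix protein that limits calcification, was at 1772 CPM in Pdgfra-Cre and 131 CPM in wild-type cells, a ratio of 13.5 (9.81 to 19.0), with 267 of 575 UMIs in 1 cell. Lcn2, lipocalin 2, had 45 UMIs, 40 of them in 1 cell, against 0. Without arterial-marked members the log2 ratio of Mgp was 2.46 against 3.65 with them, that of Lcn2 1.60 against 3.89, and that of the collagen gene Col8a1 1.69 against 3.30. Gm12840, Rpl29 and Col8a1 completed the 12, with Rpl29 at 1072 and 99.4 CPM and at 879 and 61 CPM in capillary cells. In Pdgfrb-Cre the contractile genes Tpm2 (510 and 35.3 CPM) and Des (223 and 12.8 CPM) were among the 12 highest, and with members that carried markers of another class left out, Tpm2, Des, Crispld2 and Olfr558 had 0 UMIs in both libraries. Without arterial-marked members the log2 ratio of Crispld2 was 1.76 against 3.73, and that of Tpm2 2.45 against 3.52. The 6 mural markers, at 3914 against 818 CPM, moved with them. Gdf15, a stress-responsive cytokine, was at 510 CPM in Pdgfrb-Cre and 44.9 CPM in wild-type cells, and in 13 of 23 against 7 of 43 cells, and it was at 165 and 5.61 CPM in capillary cells. S100a4, Serpine2 and Nes were also among the 12 highest, at 264, 190 and 104 CPM against 6.41, 12.8 and 3.21 CPM. The 71 S100a4 UMIs came from 7 cells, with 35 in 1 cell. Without members that lacked Selp its log2 ratio was 2.41 against 4.06. In capillary cells S100a4 was at 5.07 CPM in Pdgfrb-Cre and 89.1 CPM in wild type. The log2 ratio of Serpine2 was 1.93 against 3.13 without members that carried markers of another class.

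Some of the lowest genes are known from other cell classes. In Pdgfra-Cre these were Col3a1 (9.24 and 276 CPM), Igkc (3.08 and 148 CPM) and Pi16 (3.08 and 109 CPM), and in Pdgfrb-Cre Dcn (7.44 and 276 CPM) and Lyz2 (0 and 70.5 CPM), which are genes of fibroblasts, B cells and myeloid cells. Without members that carried markers of another class, the log2 ratio of Col3a1 was -0.55, of Pi16 0.60 and of Dcn 0.55. Col3a1 and Dcn are themselves stromal markers that chose the members left out, so their shift was partly set by that choice. Igkc stayed at -3.55 and Lyz2 at -2.91. In capillary cells Igkc was at 17.6 CPM in Pdgfra-Cre and 201 CPM in wild type. Lyz2 was at 3.04 CPM in Pdgfrb-Cre and 22.4 CPM in wild-type capillary cells. The other stromal markers compared did not go with Dcn in Pdgfrb-Cre, where 2 of 3 were higher, 1 of them past 2-fold, with a median log2 ratio of 0.35. The transcripts AC160336.1 and Gm8797 were lower in both Cre libraries and in their capillary cells, AC160336.1 at 80.1 and 160 CPM against 1347 CPM in wild-type venous cells. Bc1, Exosc2, Ccdc36 and Olfm1 completed the 12 lowest in Pdgfrb-Cre.

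**Figure D5:**
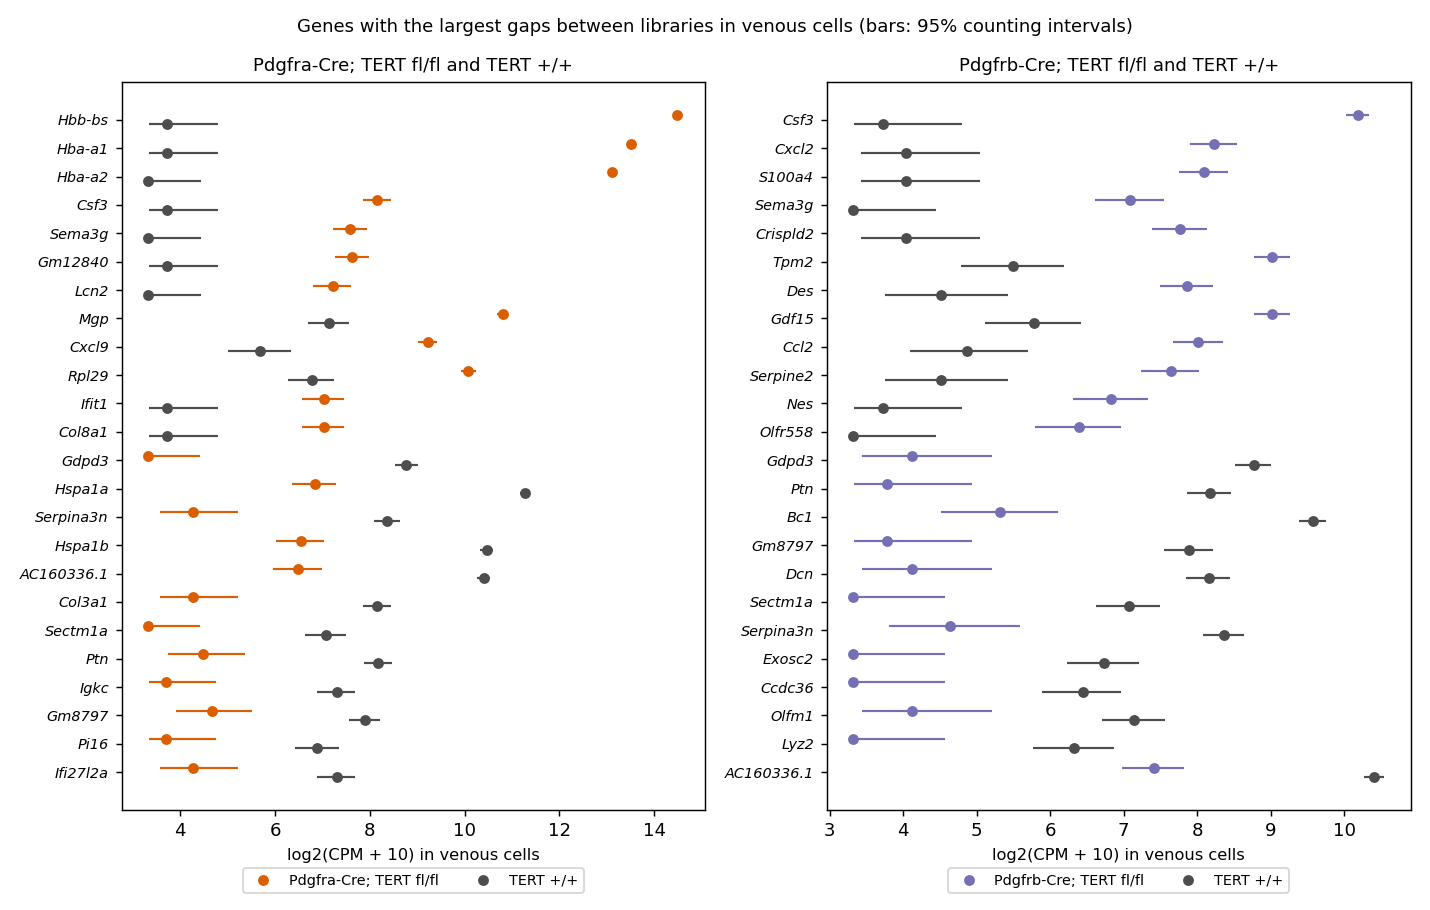
Level in venous cells as log2(CPM + 10) (horizontal axes), with 95% counting intervals, of the 12 genes with the highest and the 12 with the lowest ratio to wild type, for Pdgfra-Cre (left panel) and Pdgfrb-Cre (right panel). Csf3 stands 4.43 and 6.46 log2 units above wild type, and Gdpd3 5.45 and 4.65 units below.

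Of the stress and cell-cycle arrest genes, Cdkn1a, the cyclin-dependent kinase inhibitor p21, was at 625 CPM in Pdgfra-Cre, 673 CPM in Pdgfrb-Cre and 228 CPM in wild-type cells, ratios of 2.75 (2.09 to 3.65) and 2.96 (2.24 to 3.95). Medians of the p53 target list were 0.09 and 0.15. In the oxidative stress and metal list 9 of 14 genes compared were higher in Pdgfra-Cre, 3 past 2-fold and 0 lower past it, with a median log2 ratio of 0.21. In Pdgfrb-Cre 11 of 15 were higher, 5 past 2-fold and 0 lower past it, with a median of 0.39. Capillary medians for this list were 0.57 in Pdgfra-Cre and 0.46 in Pdgfrb-Cre. The metal-binding Mt1 was at 832, 636 and 115 CPM, log2 ratios of 2.75 and 2.36 that were 0.90 and 0.53 without arterial-marked members, and the thioredoxin reductase gene Txnrd1 at 163, 208 and 48.1 CPM. Hmox1, heme oxygenase 1, was at 201 CPM in Pdgfrb-Cre and 25.7 CPM in wild-type cells, a ratio of 7.83 (3.70 to 19.1). Immediate early genes had medians of 0.46 and 0.43, below the capillary medians of 0.71 and 1.07. Of 18 telomere genes 1 and 2 were abundant enough to compare, and Nop10, a telomerase and snoRNP component, had ratios of 0.877 (0.563 to 1.36) and 0.958 (0.607 to 1.51).

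A clotting gene and a prostanoid gene were lower in both Cre libraries. Thbd, thrombomodulin, was at 136, 93.0 and 301 CPM, and Ptgs1 at 191, 78.1 and 423 CPM, in Pdgfra-Cre, Pdgfrb-Cre and wild-type venous cells. Without arterial-marked members the log2 ratios in Pdgfra-Cre were -0.85 for Thbd and -0.75 for Ptgs1, and without the deepest member of each library that of Thbd was -0.56. Plaur, the urokinase receptor, ran the other way at 55.5, 112 and 9.62 CPM, from 18, 30 and 3 UMIs. MHC class I genes had medians of 0.39 and -0.27, with 0 of 10 past 2-fold in either library. Over all genes compared 12.6% were past 2-fold in Pdgfra-Cre and 18.1% in Pdgfrb-Cre.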

How the data were processed

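The authors deposited counts: unnormalised UMI counts per gene and barcode of 10x 3' v3 libraries, made with Cell Ranger 3.1.0 and STAR 2.6 on mm10, per the submitters' processing notes. The labels' protocol lists kits to deplete dead cells and erythrocytes. Barcodes numbered 2310, 4355 and 4124 (Pdgfra-Cre, Pdgfrb-Cre, wild type), with 14438471, 30826733 and 13352288 UMIs. Pairs of libraries shared 1 to 5 barcodes. Gene positions are from GENCODE M21 on GRCm38, which held 99.9% of 31053 identifiers. The members and gene lists were chosen with earlier results of these data known.

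UMIs were summed per library and class and scaled to CPM, with exact Poisson intervals. Ratios carry exact conditional binomial intervals and shares Clopper-Pearson intervals, all at 95%. They cover counting error only and leave out spread between cells and animals. Capillary cells passed the endothelial gate with at least 2 UMIs of the 3 capillary genes and more of these than of Selp and Vwf. Arterial-type cells were non-venous, with at least 2 UMIs of Gja5, Hey1, Sema3g, Sox17 and Fbln5, more than of the capillary genes. Venous and capillary sums were compared with edgeR 4.0.16 (quasi-likelihood, TMM, low-count filter, Benjamini-Hochberg adjustment), with DESeq2 1.42.0 as an alternative, and log2 SE was taken from the quasi-likelihood F. The code was tested on simulated data. The library block pairs classes that come from the same library. Doublets were scored with Scrublet in scanpy 1.11.5 and kept; an alternative left out the highest 0.8% per 1000 barcodes.

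Named genes between libraries were the 12 highest and 12 lowest past 2-fold with UMIs in at least 5 cells of the higher library, plus list members past 2-fold. Between classes they were the 15 highest and 10 lowest called with 1 direction in all 3 libraries and 50 CPM in the higher class. Alternatives changed scaling, added CPM, filters, the rule and the cells left out. The versions without Selp-less, arterial-marked or other-class-marked members, without the deepest member and without haemoglobin were added after seeing the data.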

Additional observations from a re-analysis of the deposited data

How the results depend on the processing

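Of 73 recomputed counts and shares, 66 stayed within 1.5 times or the spread used here. The wild-type venous share was 11.9% among cells with at least 1000 genes. With 10 CPM and no UMI minimum, 1351 genes (533 higher, 818 lower) were past 2-fold for Pdgfra-Cre and 1848 (876 and 972) for Pdgfrb-Cre, as more low genes were compared. For venous over capillary cells, DESeq2 called 370 genes, edgeR without the low-count filter 1062, and edgeR with no replicate block 285. Leaving out 1 library gave 358 to 778 calls: 358 without Pdgfra-Cre, 568 without Pdgfrb-Cre and 778 without wild type. The cause was not tested. Between genotypes no paired analysis was possible because each genotype is 1 library.

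Of 720 values of the 12 highest and 12 lowest genes, 708 kept direction and side, 9 fell inside 2-fold and 3 reversed, all 3 without other-class-marked members: Hba-a1 in Pdgfra-Cre (-0.55), Pi16 in Pdgfra-Cre (0.60) and Dcn in Pdgfrb-Cre (0.55). Of 2055 values of other list members past 2-fold, 1832 kept direction and side, 206 fell inside 2-fold and 17 reversed. In Pdgfra-Cre, Gdf15 was at -1.60 without arterial-marked and -1.61 without Selp-less members, Acta2 at -0.85 and -0.83 and Gja4 at -0.040 without arterial-marked ones. Dcn was at 3.23 and Rgs5 at 1.90 without other-class-marked members, and Ackr3 at -0.048 as a mean over cells. In Pdgfrb-Cre without other-class-marked members, Acta2 was at -0.55, Col4a2 at -0.017, Sparcl1 at -0.082, Col18a1 at -0.17, Ifi27l2a at 1.96 and Cd74 at 0.060. Col3a1 there was at -1.02 as a mean over cells and -0.70 without the deepest member, and Glycam1 at -0.45 with 2 times the capillary sum. Hba-a1, Dcn, Rgs5 and Acta2 are themselves among the markers that chose the other-class-marked members. Of 720 list medians 679 moved little. Leaving out arterial-marked members gave 149 higher and 262 lower for Pdgfra-Cre, and 305 and 332 for Pdgfrb-Cre. Of the genes past 2-fold, 62.2% were higher in Pdgfrb-Cre with median-of-ratios size factors (398 and 242), against 54.2% with CPM. Sums rest on 23 to 43 cells, and the deepest cell held 9.99%, 12.3% and 14.9% of the UMIs of Pdgfra-Cre, Pdgfrb-Cre and wild-type venous cells.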

Other observations

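A single Pdgfrb-Cre member, chosen after its values were seen, held all 45 Glycam1 UMIs and all 200 Ccl21a UMIs of that library's venous cells. Glycam1, a ligand of L-selectin, and Ccl21a, a lymphocyte-attracting chemokine, are genes of high endothelial venules, through which lymphocytes enter lymph nodes. Ccl21a is also a gene of lymphatic endothelium, and the lymphatic gene Lyve1 had 2 UMIs in the 23 cells. Madcam1 had 0 UMIs in the venous cells of all 3 libraries. In the wild-type library Glycam1 had 1 UMI in venous cells and 172 UMIs in capillary cells.

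The MHC class II gene H2-Eb1 had 27 UMIs in 9 of 23 Pdgfra-Cre and 0 UMIs in 43 wild-type venous cells. H2-Eb1 was the 1 class II gene past 2-fold of 4 compared. These genes had a median log2 ratio of 0.32 in Pdgfra-Cre venous cells and -2.69 in its capillary cells. In Pdgfrb-Cre the medians of the 3 class II genes compared were -0.98 in venous and -2.75 in capillary cells. H2-Aa was at 117 and 109 CPM, H2-Ab1 at 157 and 135 CPM and Cd74 at 327 and 241 CPM in Pdgfra-Cre and wild-type cells. The endothelin receptor gene Ednrb had 24 UMIs in 3 of 23 Pdgfrb-Cre cells, 20 of them in 1 cell, and 0 UMIs in wild-type venous cells.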
